A study of Mus musculus with 68 samples.

Results

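The circadian clock genes described here were 10 genes of the molecular clock and its direct output arm, taken by symbol from the RNA-seq count table: the activators Arntl, Clock and Npas2, the repressors Per1, Per2, Per3, Nr1d1 and Nr1d2, and the output factors Dbp and Tef. All 10 were among the 23893 entries of the table, and all 10 passed the filter on low counts, as did 17369 entries in all. The libraries were made from polyadenylated RNA of whole lungs of wild-type male mice of C57BL/6J, the standard laboratory strain, or CAST/EiJ, a strain derived from wild mice of another subspecies, both bought from The Jackson Laboratory. The mice breathed clean air or 1,3-butadiene (BD), a volatile carcinogen, and exposure ran for 6 h a day on weekdays over 2 weeks. There were 5 clean-air and 6 BD libraries labelled C57BL/6J, and 7 clean-air and 6 BD libraries labelled CAST/EiJ. The sources used here do not give the age of the mice, the light schedule or the hour at which lungs were taken, so a difference in clock hour cannot be told apart from strain or exposure in any comparison of groups.

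In mammalian cells ARNTL (also called BMAL1) pairs with CLOCK or NPAS2 and switches on genes that carry an E-box, among them the Per genes, Nr1d1, Nr1d2, Dbp and Tef. PER proteins then shut off the pair, and NR1D1 and NR1D2 (REV-ERB alpha and beta) repress Arntl and Npas2 through ROR elements, so that Arntl and Npas2 run high when Nr1d1 and Dbp run low. DBP and TEF act on D-boxes, which the Per genes carry, and the lung, including its airway epithelium, is known to hold such a clock.

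These elements are shown because they are the known binding sites of the factors that the members encode. Promoter windows from 250 bases before to 50 bases after an annotated start were found for 9 of the 10 genes in RefSeq (build GRCm38.p6), 14 windows in all. They were searched on both strands for the E-box CACGTG, the related E-prime-box CACGTT, the D-boxes TTATGTAA and TTACGTAA, the ROR elements ANTAGGTCA and ANTGGGTCA, and the cAMP response element TGACGTCA. Stretches around the matches follow, 5′ to 3′ on the strand of the gene, with the match in capitals.
Per3, D-boxes, chr4:151044786-151044900, minus strand: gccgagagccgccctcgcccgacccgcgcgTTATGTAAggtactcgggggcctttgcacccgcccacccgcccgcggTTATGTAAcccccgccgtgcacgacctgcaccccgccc
Arntl, ROR element, chr7:113207529-113207558, plus strand: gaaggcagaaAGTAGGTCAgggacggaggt
Per1, E-box, chr11:69098753-69098818, plus strand: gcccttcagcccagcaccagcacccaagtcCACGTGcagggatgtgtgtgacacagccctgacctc
Nr1d1, E-prime-box, chr11:98775378-98775435, minus strand: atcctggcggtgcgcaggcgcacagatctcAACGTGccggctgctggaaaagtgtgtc
Tef, E-box of the upstream start, chr15:81802516-81802581, plus strand: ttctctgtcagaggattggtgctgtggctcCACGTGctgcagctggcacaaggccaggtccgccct
Tef, E-box of the downstream start, chr15:81811246-81811311, plus strand: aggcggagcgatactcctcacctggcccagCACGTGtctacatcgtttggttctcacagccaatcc
The Per3 D-boxes began 205 and 158 bases before the start, the Per1 E-box 166 and the Nr1d1 E-prime-box 28 bases before it. The Arntl ROR element began 28 bases after the start of an alternative annotated transcript. Of all 32851 windows in the table, 7.15% held an E-box, 4.68% an E-prime-box, 1.06% a D-box, 1.45% a ROR element and 1.79% a cAMP response element. The windows of Clock, Npas2, Nr1d2 and Dbp held none of these letters.

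The libraries held 10597990 to 50001571 counts, and levels are given as CPM, counts scaled to the TMM-adjusted size of the library. Among the members counts were lowest for Npas2, 12 to 196 per library, and for Arntl, 52 to 704, and highest for Tef, 3900 to 20643. All markers of alveolar, airway, endothelial, stromal and macrophage cells reached 0.1 CPM in at least 1 library of every group. The 5 alveolar type 2 markers summed to 12900 to 26000 CPM. One library did not match its label. Replicate 5 of those labelled CAST/EiJ BD (number 8 in its title) had a value of 0.122 on a strain index of 500 genes, where 0 is the clean-air C57BL/6J level and 1 the clean-air CAST/EiJ level. The other 5 libraries of its group stood at 0.981 to 0.990 and the C57BL/6J libraries between -0.0166 and 0.0565, so the library labelled CAST/EiJ BD replicate 5 was left out of the fit and is shown apart. Its clock genes stood at 5.16 CPM for Arntl, 35.1 for Nr1d1, 43.6 for Dbp, 212 for Per3 and 384 for Tef. The titles number the libraries, and numbers over 100 occur in clean air only, in CAST/EiJ replicates 1 to 5 of 7 and in C57BL/6J replicate 1 of 5. The sources used here do not say what the numbers stand for.

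**Figure D1:**
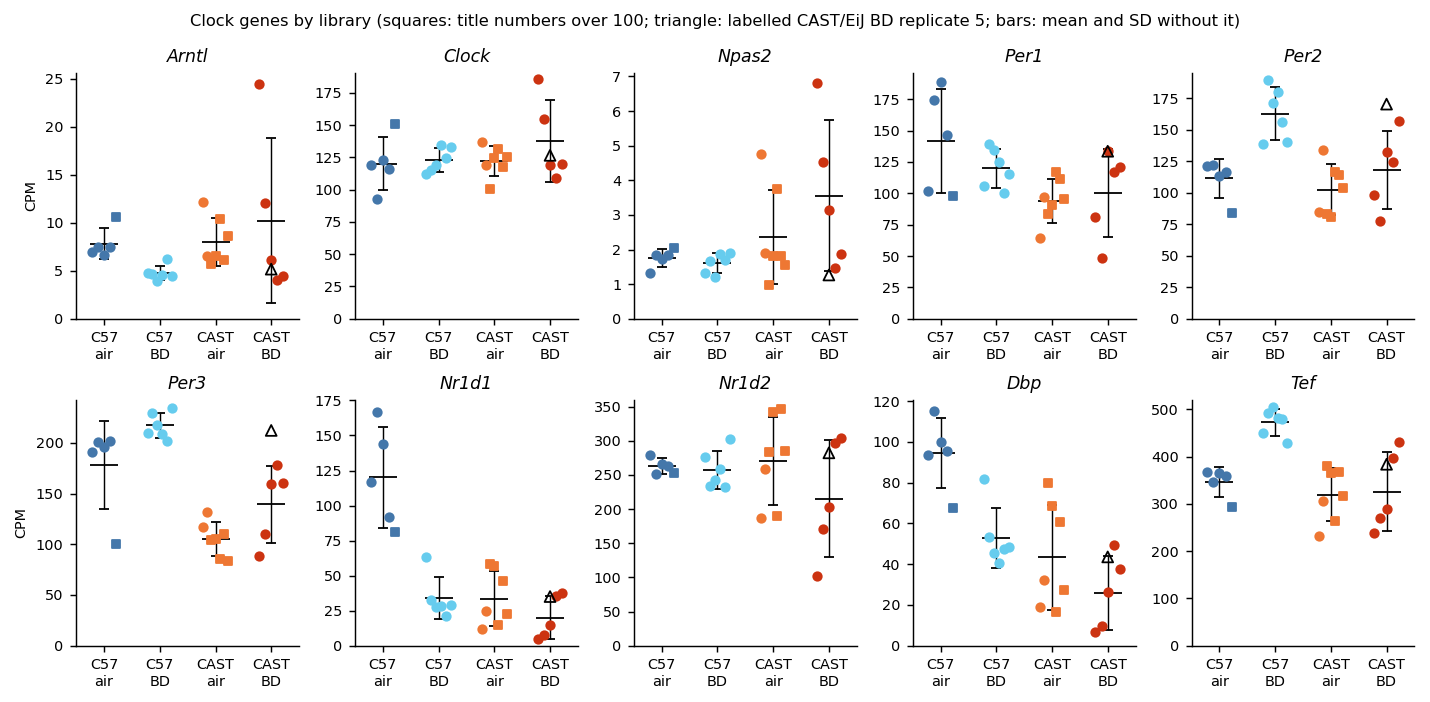
Level of each clock gene (CPM) in every library by strain and exposure, with horizontal bars for the mean and vertical bars for 1 SD over libraries without the one labelled CAST/EiJ BD replicate 5 (triangle). Squares are libraries with title numbers over 100. Nr1d1 in clean-air C57BL/6J (81.0 to 167 CPM) lies above all other libraries, and Arntl and Npas2 are highest in a few CAST/EiJ libraries.

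Under BD the lungs of C57BL/6J mice held less Nr1d1 and more Per2 and Tef. Nr1d1, the REV-ERB alpha repressor, was measured at 81.0, 117, 167, 144 and 91.6 CPM in clean-air replicates 1 to 5. Under BD its lowest, median and highest values were 21.4, 28.6 and 63.5 CPM. All 6 BD libraries lay below all 5 clean-air libraries. Nr1d1 fell 3.53-fold (log2 change -1.82, SE 0.497, edgeR quasi-likelihood test with Benjamini-Hochberg adjusted p = 0.0234). Nr1d2, REV-ERB beta, stood at 251 to 279.8 CPM in clean air and 233 to 302 CPM under BD. These ranges overlapped, and its log2 change of -0.03 did not pass (adjusted p = 0.96).

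Of the period genes, Per2 was at 84.2, 121, 122, 113 and 116 CPM in clean-air replicates 1 to 5. Under BD its lowest, median and highest values were 139, 164 and 189 CPM, all above clean air. Per2 rose 1.46-fold (log2 change 0.55, SE 0.157, adjusted p = 0.027). Per3 stood at 100.7, 191, 200.4, 196 and 201 CPM in clean air and at 202 to 235 CPM under BD. The Per3 ranges touched without overlapping, yet its log2 change of 0.29 did not pass (adjusted p = 0.309). Per1, which also responds directly to glucocorticoids, was at 97.7, 101.8, 174, 189 and 146 CPM in clean air and at 100.1 to 139 CPM under BD, with overlapping ranges (adjusted p = 0.549).

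Tef, the output factor of the PAR bZIP family, was at 292, 367, 347, 365 and 359 CPM in clean air. Under BD its lowest, median and highest values were 429, 479.7 and 505 CPM, all above clean air. Tef rose 1.36-fold (log2 change 0.45, SE 0.135, adjusted p = 0.0334). Dbp, of the same family, stood at 67.6, 93.7, 115, 100.2 and 95.7 CPM in clean air and at 40.6, 48.0 and 81.6 CPM as lowest, median and highest under BD. The Dbp ranges overlapped through 1 BD library, replicate 1, and its log2 change of -0.83 did not pass (adjusted p = 0.262).

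Arntl, the activator that NR1D1 represses, stood at 10.6, 6.91, 7.51, 6.64 and 7.45 CPM in clean air and at 3.94, 4.63 and 6.22 CPM as lowest, median and highest under BD. All BD libraries lay below all clean-air libraries, on the same side as Nr1d1, although its log2 change of -0.72 did not pass (adjusted p = 0.209). Its partners overlapped between air and BD: Clock had values of 92.5 to 151 and 112 to 134 CPM (adjusted p = 0.92), and Npas2 of 1.32 to 2.04 and 1.21 to 1.90 CPM (adjusted p = 0.887).

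In all, 3 of the 10 clock genes passed for BD in C57BL/6J, 2 higher and 1 lower. Of all tested genes 10.9% passed, 4.95% higher and 5.90% lower. Ranges did not overlap for 5 members, Nr1d1, Arntl, Per2, Per3 and Tef, and for 7.73% of all tested genes. The Nr1d1 call was lost without clean-air replicate 3 or 4 or BD replicate 3, 4 or 5, where the log2 change was -1.78 to -1.67 (adjusted p 0.0518 to 0.0683). The Per2 call was lost without clean-air replicate 1 or 4 or BD replicate 2, 3 or 4 (log2 0.461 to 0.554, adjusted p 0.0538 to 0.0614). The Tef call was lost without any 1 clean-air library or BD replicate 2, 3, 4 or 5 (log2 0.394 to 0.471, adjusted p 0.0509 to 0.0765). Without all libraries numbered over 100 Per2 and Tef did not pass either (adjusted p = 0.0643 and 0.0517). With only the 11 libraries of the comparison in the fit 5 members passed, Arntl (adjusted p = 0.00582) and Dbp (0.00941) being added. Markers of blood cells moved with this comparison: all 5 B cell markers fell, their sum ranging from 124 to 217 CPM in clean air and from 40.3 to 109 CPM under BD, and 2 of 5 T cell markers fell. Their part in the clock gene changes was not tested. In whole lung, fewer cells of a type and less RNA per cell cannot be told apart.

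**Figure D2:**
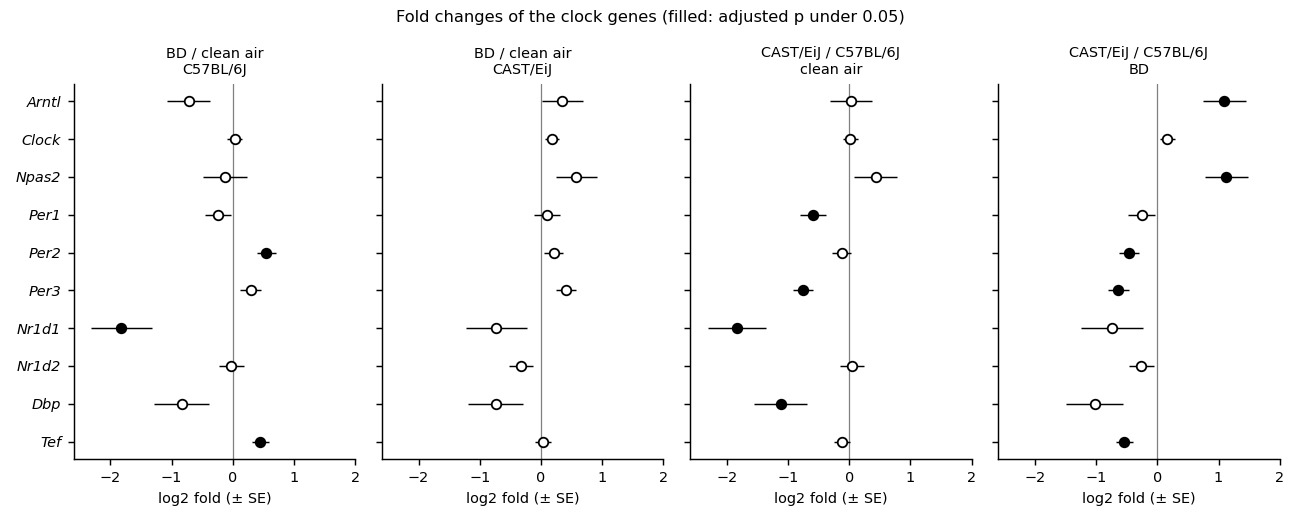
Log2 fold changes of the clock genes with 1 SE for BD against clean air in each strain and for CAST/EiJ over C57BL/6J in each air. Filled points passed an adjusted p of 0.05, and none did for BD in CAST/EiJ.

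Under BD the clock genes of CAST/EiJ did not part from clean air, and their libraries lay far apart within each group. Nr1d1 was at 4.68, 7.78, 14.6, 35.4 and 37.9 CPM in BD replicates 4, 6, 1, 2 and 3, and at 11.9, 24.7 and 58.0 CPM as lowest, median and highest in clean air. Replicates 4 and 6 lay below all clean-air libraries and the other three within their range. The log2 change of -0.73 (SE 0.492) did not pass (adjusted p = 0.345). Dbp followed the same order over replicates 4, 6 and 1, with 6.66, 9.52 and 26.6 CPM, and stood at 49.2 and 37.4 CPM in replicates 2 and 3. Its clean-air values were 16.5, 32.3 and 79.8 CPM as lowest, median and highest (log2 change -0.74, adjusted p = 0.29).

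Arntl took the opposite order, with 24.4, 12.02, 6.12, 4.01 and 4.41 CPM in replicates 4, 6, 1, 2 and 3. In clean air its lowest, median and highest values were 5.66, 6.58 and 12.2 CPM, so replicate 4 lay above and replicates 2 and 3 below that range (log2 change 0.35, adjusted p = 0.523). Npas2 had 6.80, 4.51, 3.14, 1.46 and 1.88 CPM in the same replicates and 0.984 to 4.75 CPM in clean air, overlapping (adjusted p = 0.269). Clock was at 186, 155, 119, 109 and 120.0 CPM under BD and at 100.4 to 137 CPM in clean air (adjusted p = 0.338). The activators were thus highest in replicates 4 and 6, in which Nr1d1 and Dbp were lowest.

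Per3 had the lowest p of the members here, with 88.5, 110.4, 159, 178 and 159.9 CPM in the same order of BD replicates, against 83.9, 105.2 and 132 CPM as lowest, median and highest in clean air. Replicates 1, 2 and 3 lay above all clean-air libraries, and 4 and 6 within their range (log2 change 0.40, adjusted p = 0.116). Per2 was at 77.3 to 157 CPM under BD and 80.3 to 134 CPM in clean air, and Per1 at 48.1 to 134 and 64.0 to 117 CPM. Both overlapped (adjusted p = 0.383 and 0.814). Nr1d2 stood at 101.4 to 304 CPM under BD and 187 to 347 CPM in clean air, and Tef at 239 to 431 and 232 to 379 CPM, also with overlap (adjusted p = 0.286 and 0.911).

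For BD in CAST/EiJ 0 of the 10 clock genes passed edgeR's test, where 7.43% of all tested genes passed. At an unadjusted p under 0.05 it was 1 member, Per3, and DESeq2 called 0. None had ranges that did not overlap, against 2.16% of all tested genes. With the library labelled replicate 5 counted by its label Per3 passed (log2 change 0.52, adjusted p = 0.0422), as did 12.9% of all tested genes. Without the clean-air numbers over 100, which left replicates 6 and 7, the log2 change of Nr1d1 was 0.17 and that of Dbp 0.03, the opposite sign. The interaction, which is the ratio of the BD responses in CAST/EiJ and C57BL/6J, passed for 0 of the 10 in edgeR and for 8.68% of all tested genes. Of the members 2 had an unadjusted p under 0.05, Arntl (log2 1.07, SE 0.4835, adjusted p = 0.149) and Tef (log2 -0.42, SE 0.187, adjusted p = 0.141), and DESeq2 called 0. Tef passed without CAST/EiJ BD replicate 3 (log2 -0.542, adjusted p = 0.0498). A different BD response of the clock genes between the strains was not shown with all 23 libraries.

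In clean air 4 clock genes were lower in CAST/EiJ than in C57BL/6J, all of them repressors or outputs, and none was higher. Nr1d1 was 3.56-fold lower (log2 difference -1.83, SE 0.475, edgeR adjusted p = 0.00247), with every CAST/EiJ library (11.9 to 58.0 CPM) below every C57BL/6J library (81.0 to 167 CPM). Dbp was 2.17-fold lower (log2 difference -1.12, SE 0.432, adjusted p = 0.0315), with CAST/EiJ replicates 1 (79.8 CPM) and 2 (68.7 CPM) inside the C57BL/6J range. Per3 was 1.69-fold lower (adjusted p = 0.000366), and the strains overlapped only through C57BL/6J replicate 1 at 100.7 CPM. Per1 was 1.503-fold lower (adjusted p = 0.0186), with overlapping ranges of 64.0 to 117 CPM in CAST/EiJ and 97.7 to 189 CPM in C57BL/6J.

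The other 6 members did not pass between the strains in clean air. Arntl, Clock, Nr1d2, Per2 and Tef differed by log2 values between -0.12 and 0.04 (adjusted p 0.443 to 0.951), and Npas2 by 0.43 (adjusted p = 0.297). The 4 calls compare with 28.7% of all tested genes lower in CAST/EiJ and 32.0% higher, 60.7% in either direction, and the 1 member without overlap, Nr1d1, with 31.9%. Without the libraries numbered over 100 all 4 calls held, at log2 -2.83 for Nr1d1, -1.99 for Dbp and -0.925 for Per1. With the number series as a covariate Per3 was at log2 -0.435 (adjusted p = 0.0291), and the calls of Per1 (log2 -0.575, adjusted p = 0.0847) and Dbp (-1.42, 0.0509) ended. The Per1 call also ended without C57BL/6J replicate 3 or 4 (log2 -0.503 and -0.463, adjusted p 0.0595 and 0.0738), and the Dbp call without C57BL/6J replicate 3, 4 or 5 or CAST/EiJ replicate 3, 5, 6 or 7 (log2 -1.11 to -0.974, adjusted p 0.0505 to 0.0665). Alveolar macrophage markers summed to 673 to 869 CPM in C57BL/6J and 1840 to 3980 CPM in CAST/EiJ, where 5 of 7 were higher and 2 lower. All 5 smooth muscle markers were higher in CAST/EiJ, and all 5 B cell markers and 4 of 5 T cell markers were lower. Their part, and that of aligning CAST/EiJ reads to a reference of the C57BL/6J genome, was not tested.

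Under BD 5 of the 10 clock genes differed between the strains, where 42.8% of all tested genes did. Arntl and Npas2 were higher and Per2, Per3 and Tef lower in CAST/EiJ. Arntl was 2.13-fold higher (log2 difference 1.09, SE 0.349, edgeR adjusted p = 0.0144) and Npas2 2.18-fold higher (log2 1.13, SE 0.351, adjusted p = 0.0116). Both calls rested on CAST/EiJ BD replicate 4, without which the log2 differences were 0.45 (adjusted p = 0.172) and 0.74 (0.0867). Fitted on the 2 BD groups alone Arntl did not pass either (log2 1.09, adjusted p = 0.0616). Per3 was 1.56-fold lower (adjusted p = 0.004), with all CAST/EiJ libraries at or below 178 CPM and all C57BL/6J libraries at or above 202 CPM. Tef was 1.45-fold lower (adjusted p = 0.00236) and Per2 1.38-fold lower (adjusted p = 0.0196), both overlapping. The Per2 call ended without CAST/EiJ BD replicate 4 or 6 (adjusted p 0.0585 and 0.0672) and with the library labelled replicate 5 counted by its label (0.0805). Cell markers also differed: all 4 club cell markers and 4 of 5 T cell markers were lower in CAST/EiJ under BD. Of 5 ciliated cell markers 4 were lower and 1 higher. All 5 neutrophil markers were higher, and of 7 alveolar macrophage markers 5 were higher and 2 lower. Their part in the clock gene differences was not tested.

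Of all tested genes 22.3% were higher and 20.6% lower between the strains under BD. Ranges did not overlap for 29.3% of them and for 1 member, Per3. Nr1d1 (log2 difference -0.74, adjusted p = 0.255) and Dbp (-1.02, 0.0823) did not pass. Dbp passed in DESeq2 (log2 -1.04, adjusted p = 0.0489) and without CAST/EiJ BD replicate 2 (-1.38, 0.0286). This comparison and that in clean air share no library, but all comparisons share 1 estimate of the spread. Between the clean-air libraries numbered over 100 and the others of their strain 1 member passed, Per3, 1.48-fold lower (log2 difference -0.56, adjusted p = 0.0132). Of all tested genes 25.6% passed there, 11.2% lower. The Per3 call ended without C57BL/6J clean-air replicate 1 (log2 -0.34, adjusted p = 0.173).

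To determine whether activators and repressors moved against each other from library to library, the log2 CPM of each gene was taken as the deviation from its group mean in the 23 libraries. Each of the 3 activators was paired with each of the 7 other members. All 21 Pearson correlations were negative, and 14 passed a two-sided permutation test, with 100000 permutations of libraries within groups and Benjamini-Hochberg adjustment over the 21 pairs. The share of pairs among all tested genes that would pass was not computed. The counts of pairs given here and below thus have no background to be read against. Arntl and Nr1d1 had r = -0.861 (Spearman rho -0.804, permutation p = 2e-05 and 0.0006, adjusted p = 0.000168 and 0.00216). Without CAST/EiJ BD replicates 4 and 2, the 2 farthest from the median of Arntl, r was -0.824. Arntl and Dbp had r = -0.872 (rho -0.82), Arntl and Nr1d2 -0.896 (rho -0.738), and Npas2 and Tef -0.887 (rho -0.825), with adjusted permutation p of 0.000168, 0.000303 and 0.000168.

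The period genes took part unevenly. Per3 was negative with Arntl (r = -0.732, adjusted permutation p = 0.00311) and with Clock (-0.736, 0.00662), but the pair of Npas2 and Per3 did not pass (-0.436, 0.0878) except without the numbers over 100 (-0.801, 0.0328) or with the library labelled CAST/EiJ BD replicate 5 (-0.525, 0.0389). None of the 6 pairs of an activator with Per1 or Per2 passed by Pearson's r, which ran from -0.552 to -0.298. By Spearman's rho Arntl and Per1 (-0.588, adjusted permutation p = 0.021) and Clock and Per1 (-0.564, 0.0342) passed. Arntl and Per1 also passed by Pearson's r without the 2 libraries farthest from the median of Arntl (-0.645, adjusted permutation p = 0.0353). In all 15 of the 21 pairs passed by rho, and without the numbers over 100 13 passed by Pearson's r. Clock and Nr1d2 did not pass by rho (-0.471, adjusted permutation p = 0.067) or without the numbers over 100 (r = -0.717, 0.0559). That pair also did not pass without the 2 libraries farthest from the median of Clock (-0.493, 0.074). Clock and Tef did not pass without the numbers over 100 (-0.666, adjusted permutation p = 0.0975). The other 24 pairs were examined after these values were known, and 13 passed, all positive. Nr1d1 and Dbp moved most closely together (r = 0.958, rho 0.947, adjusted permutation p = 0.00012 and 0.00024), Arntl and Npas2 had r = 0.846 (rho 0.772) and Per1 and Per2 0.756 (rho 0.723).

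**Figure D3:**
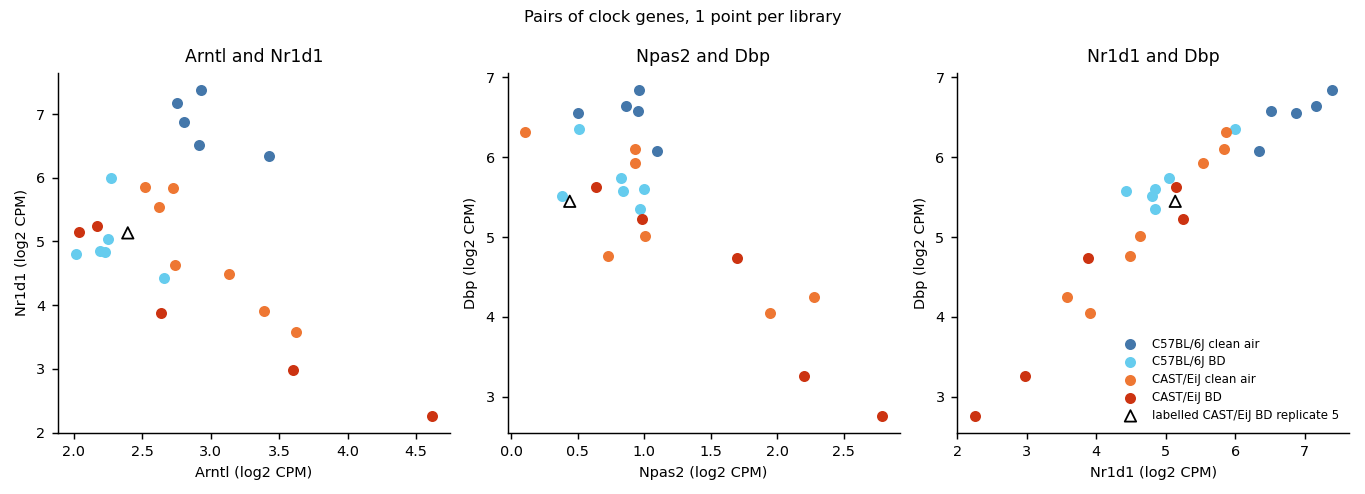
Pairs of clock genes in log2 CPM, 1 point per library, coloured by strain and exposure, with the library labelled CAST/EiJ BD replicate 5 as an open triangle. CAST/EiJ libraries run from high Nr1d1 and low Arntl to the reverse, whereas C57BL/6J libraries of a group lie close together.

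Within single groups the relation was tested in 2. In the 7 clean-air CAST/EiJ libraries Arntl ran against Nr1d1 (r = -0.927, rho -0.964, exact permutation p = 0.00258 and 0.00278, adjusted over 8 tests 0.0206 and 0.0222) and against Dbp (r = -0.91, rho -0.929, exact permutation p = 0.00655 and 0.00675, adjusted 0.0262 and 0.027). The pairs of Npas2 with Nr1d1 and with Dbp did not pass there (r = -0.83 and -0.811, both adjusted exact permutation p = 0.0516, by rho both 0.176). In the 6 C57BL/6J BD libraries none of the 4 pairs passed (Arntl and Nr1d1 r = -0.273, rho 0.0857, exact permutation p = 0.485 and 0.919). The span of Arntl there was 1.58-fold, against 2.16-fold in clean-air and 6.09-fold in BD libraries of CAST/EiJ. Correlations were computed only in groups of at least 6 libraries, which left out clean-air C57BL/6J and CAST/EiJ BD with 5 each.

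A single number per library sums up this axis: the mean log2 CPM of Arntl and Npas2 minus the mean of Nr1d1, Dbp, Per1, Per2 and Per3, given without a test. It ran from -5.36 to -4.16 in clean-air C57BL/6J, from -5.39 to -4.57 in C57BL/6J under BD, from -5.02 to -2.47 in clean-air CAST/EiJ and from -5.08 to -1.19 in CAST/EiJ under BD. The 2 C57BL/6J groups overlapped almost in full on this index, and their highest library was clean-air replicate 1. On the log2 difference between Arntl and Nr1d1 alone they lay further apart, at -4.46 to -2.92 in clean air and -3.72 to -1.77 under BD, with 5 of 6 BD libraries above the clean-air range. The medians of the index itself were -5.26, -5.00, -4.20 and -3.84, in the order in which its ranges are given above. The libraries at the end of high Arntl were CAST/EiJ BD replicates 4 (-1.19) and 6 (-2.08) and clean-air replicates 6 (-2.47) and 3 (-2.96). In BD replicate 4 the log2 difference between Arntl and Nr1d1 was 2.36, and in clean-air C57BL/6J replicate 3 it was -4.46. Such a difference between 2 genes is compared between libraries only, since gene length was not taken into account. The library labelled CAST/EiJ BD replicate 5 had an index of -5.14, inside the range of both C57BL/6J groups and below the other CAST/EiJ BD libraries.

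**Figure D4:**
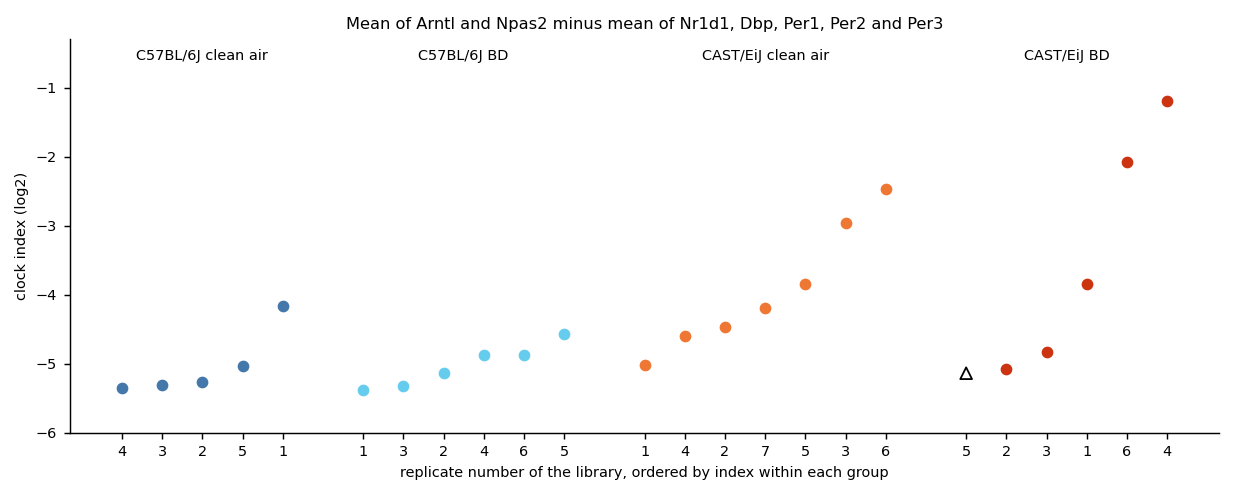
Clock index (log2) of each library, which is the mean of Arntl and Npas2 minus the mean of Nr1d1, Dbp, Per1, Per2 and Per3, ordered by value within each group and marked by replicate number, with the library labelled CAST/EiJ BD replicate 5 as an open triangle. C57BL/6J libraries lie between -5.39 and -4.16, and CAST/EiJ libraries reach -1.19.

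Markers of squamous epithelium differed between libraries of every group, and their relation to the clock index was not tested. These markers summed to 1710, 501, 666 and 12.8 CPM in CAST/EiJ BD replicates 4 and 6 and clean-air replicates 6 and 3. In BD replicates 2 and 3, at the other end of the index, they summed to 2250 and 797 CPM. The median over all clean-air CAST/EiJ libraries was 39.1 CPM. Liver markers (4.67 to 1780 CPM in clean-air CAST/EiJ) and cardiac muscle markers (224 to 2950 CPM in CAST/EiJ BD) also spanned wide ranges. Those are not set against the clock index here. Replicate 1 stood out in C57BL/6J clean air by the squamous markers, at 1580 CPM against 4.68 to 17.2 CPM. It also stood out by the sum of 12 heat shock and cold-responsive genes, at 3470 CPM against 1490 to 1690 CPM. The cold-responsive Rbm3 and Cirbp spanned only 1.21-fold and 1.64-fold in that group, against 1.76-fold or more for each heat shock gene. The part of these markers and genes in the values of replicate 1 was not tested.

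The clock genes differed widely in how much they varied between libraries of a group. The pooled SD of log2 CPM was 0.866 for Nr1d1 and 0.802 for Dbp, exceeded by 3.48% and 4.04% of all tested genes. Npas2 (0.602) and Arntl (0.575) followed, Per1 had 0.392, Nr1d2 0.371, Per3 0.312, Per2 0.280, Tef 0.238 and Clock 0.211. The median of all tested genes was 0.207, so that Clock, the most even of the members, stood near the middle. For Nr1d1 the SD was 0.435 and 0.53 in clean-air and BD libraries of C57BL/6J and 0.926 and 1.32 in those of CAST/EiJ. For Nr1d2 it was 0.0636 and 0.15 against 0.362 and 0.651. All 10 members had their highest SD in CAST/EiJ BD except Per3, which had 0.434 in clean-air C57BL/6J through replicate 1 and 0.428 in CAST/EiJ BD.

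**Figure D5:**
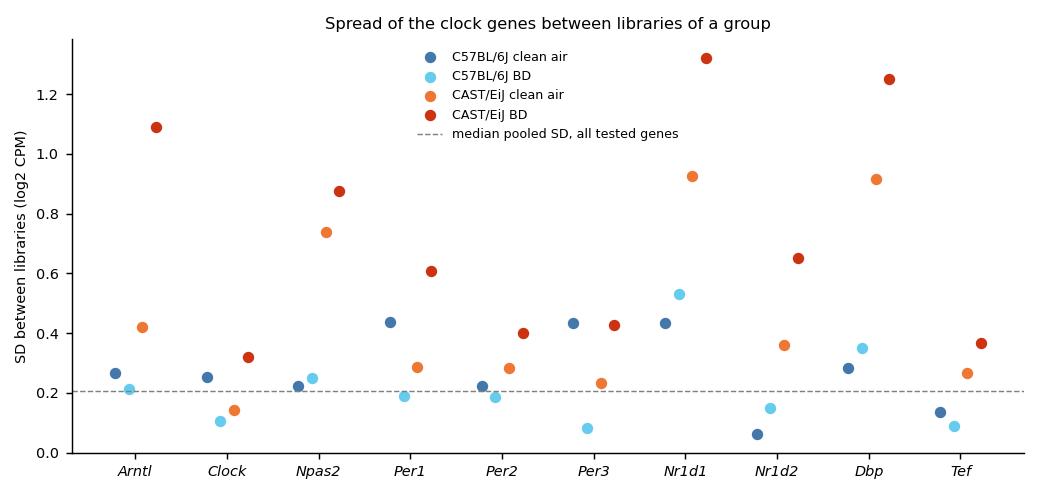
SD of log2 CPM between libraries of a group for each clock gene, with the median pooled SD of all tested genes (0.207) as a dashed line. Nr1d1, Dbp, Arntl and Npas2 reach 0.877 to 1.32 in CAST/EiJ BD, and Clock and Tef stay below 0.4 in every group.

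Genes whose deviations were most like those of Arntl and Nr1d1 over the 23 libraries were named as a description, members apart. With Arntl these were Ahcyl2 (r = 0.82), Pigh, Ppp1r3c, Leo1 and Rassf9, and most opposed were Tspan4 (r = -0.85), Slc1a5, Scn3a, Marveld1 and Trim36. With Nr1d1 they were Sphk2 (r = 0.915), Scn3a, Tspan4, Srpx2 and Ptgis, and among the most opposed were Negr1 (r = -0.883), Cxcl5, Rassf9 and Lama3. Among all 17368 other tested genes Npas2 was the most like Arntl and Nr1d2 the least. Dbp was the most like Nr1d1, whereas Per3, Per1 and Per2 ranked 382, 892 and 3217 by likeness to Nr1d1.

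Neighbouring entries share bases with 7 of the members in RefSeq, and for 3 members the neighbour was among the tested genes. Dbp overlaps Sphk2 by 741 bases on the other strand, and the deviations of Sphk2 and Dbp had r = 0.934. Nr1d1 overlaps Thra, which encodes thyroid hormone receptor alpha, by 1075 bases, with r = 0.60. Thra fell 1.49-fold under BD in C57BL/6J (adjusted p = 0.000614) and was 1.70-fold lower in CAST/EiJ in clean air (adjusted p = 2.5e-07), the same directions as Nr1d1. The sources used here do not say whether reads were counted by strand, so reads from the shared bases cannot be told apart. Per3 overlaps Uts2, by 4714 bases (r = 0.576).

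Of 18 other clock genes, all tested, 2 rose under BD in C57BL/6J (4.95% of all tested genes rose) and none fell, with a median log2 change of 0.08 against 0.02 over all tested genes. Among them was the repressor Cry1 (1.78-fold, adjusted p = 0.005), a gene that NR1D1 is known to repress. In CAST/EiJ 1 of 18 rose under BD, the kinase gene Gsk3b (1.29-fold, adjusted p = 0.0316), and none fell, where 7.43% of all tested genes passed. Gsk3b was also the 1 gene of the list whose BD response differed between the strains (log2 0.62, adjusted p = 0.0179), as did that of 8.68% of all tested genes. In clean air 4 of 18 were higher and 9 lower in CAST/EiJ, where 32.0% of all tested genes were higher and 28.7% lower (median log2 -0.24, all tested genes 0.04). The highest of these folds was that of the Arntl paralog Arntl2, 8.26-fold lower, followed by Rorb (3.21-fold), the repressor Bhlhe41 (2.70-fold) and Timeless (2.43-fold), whereas Cry1 was 1.62-fold higher. Arntl2 and Rorb rested on low levels, averaging 0.27 and 0.25 CPM in clean-air CAST/EiJ and 2.25 and 0.78 CPM in clean-air C57BL/6J. Under BD 1 was higher (22.3% of all tested genes), the D-box repressor Nfil3 (1.59-fold), and 7 were lower (20.6% of all tested genes). Among these Arntl2 was 5.54-fold lower, at means of 0.52 CPM in CAST/EiJ and 2.98 CPM in C57BL/6J. In the numbers over 100 Hlf, Timeless and Gsk3b were lower, by 1.35-fold, 1.21-fold and 1.25-fold, as were 11.2% of all tested genes.

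Of 12 clock-controlled output genes 6 rose under BD in C57BL/6J, as did 4.95% of all tested genes, and none fell, with a median log2 change of 0.37 against 0.02 over all tested genes. They were Cdkn1a (2.29-fold), Tsc22d3 (2.01-fold), Alas1 (1.70-fold), the cell cycle kinase gene Wee1 (1.56-fold), Herpud1 (1.37-fold) and Nampt, the rate-limiting enzyme of NAD salvage (1.32-fold). Cdkn1a is also a p53 target and Tsc22d3 a glucocorticoid target. In CAST/EiJ 0 of 12 passed edgeR's test under BD (7.43% of all tested genes passed), with a median of -0.16 against -0.01, and 0 had an unadjusted p under 0.05. For 4 of them, Tsc22d3, Alas1, Herpud1 and Wee1, the BD response was lower in CAST/EiJ by the interaction test (log2 -1.21, -1.04, -0.71 and -0.64, adjusted p 0.0138 to 0.0209). That test passed for 8.68% of all tested genes in either direction. In clean air 6 of 12 were higher in CAST/EiJ (32.0% of all tested genes), among them Tsc22d3 (2.55-fold) and Cdkn1a (2.37-fold). Under BD 4 were lower in CAST/EiJ (20.6% of all tested genes), Herpud1, Alas1, Por and Tspan4, and 1 was higher (22.3% of all tested genes).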

How the data were processed

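The authors deposited 1 table of read counts by gene symbol for the polyadenylated RNA libraries. Reads were aligned with GSNAP to mm9, per the submitters' processing notes. The sources used here do not give the GSNAP version, the counting tool, its use of strand or the gene models. Each of the 24 columns was matched to a sample by title. Of 23893 entries, 21 had missing values and 23872 were used. The small RNA table was not used here. Over 276 pairs of libraries the lowest chi-square divided by its degrees of freedom was 5.2, so no library was a copy of another.

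Counts of 23 libraries, without the library labelled CAST/EiJ BD replicate 5, were fitted with 1 mean per group in edgeR 4.0.16 (R 4.3.3; filterByExpr, TMM scaling, robust quasi-likelihood F test). Adjusted p (Benjamini-Hochberg over all tested genes) under 0.05 was called. The labels do not say whether libraries came from separate mice, so p-values measure the spread between libraries, which may be partly technical. Correlations used log2 CPM with a prior count of 2. RefSeq places and promoters are in GRCm38.p6, not the build of the files. The members, lists and tests were chosen with earlier results of these data known. All members were reported in every comparison, genes of the other clock lists where they passed, and for likeness the 5 highest and 5 lowest correlations among named genes averaging at least 1 CPM. Some genes that these rules name are not reported here.

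On simulated counts the test found 76.1% of 2-fold changes for BD in C57BL/6J (17223 genes), 79.1% for BD in CAST/EiJ (17220 genes) and 86.6% for the strains in clean air (17221 genes). Of genes changed 1.5-fold it found 59.7%, 53.7% and 56.7%. The changes were planted in 66 or 67 genes per fold, drawn at random from all tested genes. These shares do not tell how often changes of more variable genes would be found. Among those are Nr1d1 (pooled SD 0.866) and Dbp (0.802), against a median of 0.207. Alternatives were the odd library kept by its label, median-of-ratios scaling, no low-count filter, DESeq2 1.42.0, the compared groups alone, the libraries numbered over 100 left out or given a covariate, each library left out, and for correlations a prior count of 0.5.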

Additional observations from a re-analysis of the deposited data

Results flagged for a closer look

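Of 40 groups of values, the 10 clock genes in 4 groups of libraries, 7 had an extreme library whose gap to its neighbour took up most of the range of the group. Chance gives about 1 in 20, or 2 of 40, if the groups of values are independent. They are not, since clock genes of the same libraries move together, so the 7 cannot be weighed against the 2. In clean-air C57BL/6J it was replicate 1 each time, with Arntl at 10.6 CPM (others 6.64 to 7.51), Per2 at 84.2 CPM (others 113 to 122), Per3 at 100.7 CPM (others 191 to 201) and Tef at 292 CPM (others 347 to 367). In C57BL/6J under BD replicate 1 was highest for Nr1d1, at 63.5 CPM (others 21.4 to 32.9), and for Dbp, at 81.6 CPM (others 40.6 to 53.3). Replicate 5 of the same group was highest for Arntl, at 6.22 CPM (others 3.94 to 4.74).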

How the results depend on the processing

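No paired analysis was possible because title numbers are never shared between groups and replicate numbers follow the accession order only. Groups held 5 to 7 libraries, Npas2 and Arntl rested on few counts in the smaller libraries, and a covariate for numbers over 100 rests on 6 clean-air libraries. Each cause below was not tested. For BD in C57BL/6J 1885 genes and 3 clock genes passed. Without numbers over 100 these were 3215 genes and 1 clock gene, with the series as a covariate 3585 genes, with the compared groups alone 5 clock genes, and on leaving out 1 library 983 to 2395 genes and 0 to 3 clock genes. For BD in CAST/EiJ 1291 genes and 0 clock genes passed. The numbers were 2246 and 1 with the library labelled CAST/EiJ BD replicate 5, and 2261 genes with DESeq2, 210 with the compared groups alone, 607 without numbers over 100, 259 with the covariate and 432 to 2771 on leaving out 1 library. For the interaction 1508 genes passed, against 2507 with DESeq2, 335 without numbers over 100, 83 with the covariate and 365 to 3455 on leaving out 1 library (0 to 1 clock genes). Between the strains in clean air 2 clock genes passed with the covariate in place of 4, and 2 to 4 on leaving out 1 library. Under BD it was 2 to 6 in place of 5. For the number series it was 0 to 1 clock gene and 2701 to 4540 genes.

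Every reversal was of a clock gene that had not passed. With the series as a covariate the log2 value was 0.0122 for Nr1d2 (BD in C57BL/6J), -0.0812 for Nr1d2, -0.0219 for Clock and 0.02 for Per2 (strains in clean air) and -0.205 for Per3 (interaction). Without numbers over 100 it was 0.168 for Nr1d1 and 0.0332 for Dbp (BD in CAST/EiJ), -0.25 for Nr1d2 (strains in clean air) and -0.0225 for Clock (interaction). For Arntl in the number series it was -0.00109 with median-of-ratios factors and -0.00906 with DESeq2. On leaving out 1 library, values ran from -0.0487 to 0.127 for Clock (BD in C57BL/6J). In the BD comparison of CAST/EiJ they ran from -0.291 to 0.552 for Arntl, -0.0308 to 0.267 for Per1 and -0.0937 to 0.122 for Tef. Between the strains in clean air they ran from -0.105 to 0.17 for Arntl, -0.0588 to 0.117 for Clock and -0.0266 to 0.115 for Nr1d2, and for the interaction from -0.267 to 0.343 for Dbp. For the number series they ran from -0.338 to 0.387 for Arntl, -0.0961 to 0.212 for Clock, -0.734 to 0.179 for Npas2, -0.0171 to 1.13 for Nr1d1, -0.301 to 0.309 for Per1 and -0.0744 to 0.329 for Tef. The count of 14 negative pairs stayed between 13 and 17.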

Other observations

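Genes outside the clock that often move with it were followed as context. Of 12 heat shock and cold-responsive genes, 0 passed edgeR's test for BD in either strain, with 0 at an unadjusted p under 0.05 in C57BL/6J and 1 in CAST/EiJ. Of all tested genes 10.9% passed in C57BL/6J and 7.43% in CAST/EiJ. In clean air 4 of 12 were higher in CAST/EiJ, a share like the 32.0% of all tested genes, and 2 were lower (28.7% of all). The higher ones included the chaperone gene Hspa8 (2.15-fold, adjusted p = 0.00129), Hspd1 (1.92-fold) and Hsp90aa1 (1.91-fold). The lower ones were the cold-inducible RNA-binding genes Cirbp (1.66-fold, adjusted p = 0.0139) and Rbm3 (1.39-fold, adjusted p = 0.00328). Under BD 6 were higher and 1 was lower, where 22.3% of all tested genes were higher and 20.6% lower.

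Of 14 glucocorticoid-responsive genes, Per1 and Tsc22d3 among them, 8 rose and 1 fell under BD in C57BL/6J (4.95% and 5.90% of all tested genes). In CAST/EiJ 2 rose, the metallothionein genes Mt1 (1.59-fold) and Mt2 (1.59-fold), where 7.43% of all tested genes passed in either direction. In clean air 10 were higher and 1, Per1, was lower in CAST/EiJ (32.0% and 28.7% of all tested genes). The BD response of 7 was lower in CAST/EiJ by the interaction test and of none higher (8.68% of all tested genes passed in either direction). Of 15 tested immediate early genes 8 fell under BD in C57BL/6J (5.90% of all tested genes). In CAST/EiJ 0 passed edgeR's test (2 at an unadjusted p under 0.05), where 7.43% of all tested genes passed. For 4 of these genes (Egr1, Nr4a1, Nr4a3 and Nr4a2) the ratio of BD to clean air was higher in CAST/EiJ than in C57BL/6J. Of all tested genes 8.68% passed this interaction test in either direction. Mean Egr1 was 47.9 CPM in clean air and 11.1 CPM under BD in C57BL/6J, and 9.58 and 9.48 CPM in CAST/EiJ. Mean Nr4a1 was 76.5 and 21.7 CPM in C57BL/6J and 19.2 and 21.8 CPM in CAST/EiJ.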
